A study of Mus musculus with 15 samples.

Results

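The 7 genes Omp, Gng13, Gnal, Cnga2, Cnga4, Ano2 and Stoml3 are genes of mature olfactory sensory neurons, whose cell bodies lie in the nose and whose axons end in the glomeruli of the olfactory bulb. They were followed on arrays of mouse olfactory bulb RNA. Members were the probes whose gene name in the scanner files was one of the 7 symbols, which gave 8 probes, 2 of them for Gnal, of 55681 probes in all, and 7 of 27336 genes or unnamed transcripts tested. All 8 probes were well above background on all 15 arrays, and no member was lost to the filter on dim probes.

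The study compared 3 groups of 5 male mice aged 6 to 8 weeks, each mouse giving 1 array. Each bulb was injected with an adeno-associated virus (500 nL) carrying a gene that only Cre recombinase switches on, and its total RNA was taken 2 weeks later. In the active CRHR1 group, CRHR1-Cre mice of the strain C57Bl/6 received AAV-flex-(CA)CRHR1, which codes for a constitutively active receptor for corticotropin-releasing hormone (CRH), a stress peptide. In the knockout group, CRHR1-/- mice of the strain 129S4/SvJae received AAV-flex-EGFP, which codes for green fluorescent protein. In the Cre GFP group, CRHR1-Cre mice of the strain C57Bl/6 received AAV-flex-GFP. Per the labels, the cells that switch it on are CRHR1-positive granule cells, inhibitory interneurons with no axon, and not the sensory neurons. The titles name no Cre for the knockout mice. Loss of the receptor, strain and Cre cannot be told apart in comparisons with that group.

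Sensory neurons detect odorants with a cyclic AMP cascade. A receptor activates the olfactory G protein, which drives adenylyl cyclase, and the cyclic AMP opens a cyclic nucleotide-gated channel whose calcium in turn opens a chloride channel. Some of the messenger RNA of these neurons travels down the axon, so that bulb RNA holds it although the nuclei lie in the nasal epithelium. In total bulb RNA, fewer axons and less RNA per axon cannot be told apart. Total RNA also does not separate sensory axons from bulb cells for the genes followed here. Whether bulb cells themselves add to their signal was not tested.

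Promoter windows are shown first because these genes share a cell type, and EBF (Olf1) transcription factors, named after an element of olfactory neuron genes, are known there. RefSeq windows of build GRCm38.p6, from 250 bases before to 50 bases after an annotated start, were found for Cnga2, Cnga4, Gng13, Stoml3 and Ano2, giving 8 windows. The EBF core CCCNNGGG, searched on both strands, was in 4 of the 8 windows and in 13.7% of all 32851 windows of that length. By gene it was at 4 of the 5, but Ano2 and Gng13 had several windows, and no share over all genes was computed. The capitals mark this core (at Gng13, overlapping copies of it) in Cnga2 (chrX:71991599-71991898, plus strand), Gng13 (chr17:25716922-25717221, plus strand), Ano2 (chr6:125710938-125711237, plus strand) and Cnga4 (chr7:105404318-105404617, plus strand).
Cnga2: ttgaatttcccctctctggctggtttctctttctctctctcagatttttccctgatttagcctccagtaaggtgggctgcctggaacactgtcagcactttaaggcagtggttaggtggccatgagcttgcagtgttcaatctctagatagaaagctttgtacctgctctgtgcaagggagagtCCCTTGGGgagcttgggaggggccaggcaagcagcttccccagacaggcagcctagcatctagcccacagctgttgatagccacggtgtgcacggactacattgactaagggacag
Gng13: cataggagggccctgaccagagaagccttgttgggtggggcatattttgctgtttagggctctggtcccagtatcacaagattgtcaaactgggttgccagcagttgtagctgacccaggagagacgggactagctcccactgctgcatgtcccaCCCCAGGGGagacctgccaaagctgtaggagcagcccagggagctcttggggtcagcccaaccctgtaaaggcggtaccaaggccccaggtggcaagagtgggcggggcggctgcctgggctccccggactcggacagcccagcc
Ano2: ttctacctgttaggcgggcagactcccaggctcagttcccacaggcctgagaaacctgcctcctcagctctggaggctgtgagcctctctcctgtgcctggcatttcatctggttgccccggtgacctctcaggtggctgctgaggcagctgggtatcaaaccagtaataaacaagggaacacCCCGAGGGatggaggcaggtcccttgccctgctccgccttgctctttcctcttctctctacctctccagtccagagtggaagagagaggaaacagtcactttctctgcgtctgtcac
Cnga4: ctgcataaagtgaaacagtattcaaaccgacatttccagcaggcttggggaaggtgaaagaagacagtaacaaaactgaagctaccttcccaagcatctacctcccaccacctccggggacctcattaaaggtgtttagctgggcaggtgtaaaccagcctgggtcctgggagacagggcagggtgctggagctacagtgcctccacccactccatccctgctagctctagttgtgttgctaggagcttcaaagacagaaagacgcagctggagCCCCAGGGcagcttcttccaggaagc
The annotated start being base 0, the core lay at bases -66 to -59 in Cnga2, -95 to -87 in Gng13 and -67 to -60 in Ano2. In Cnga4 it lay beyond the start, at bases 24 to 31. Stoml3 held only the shorter CCCNNGG, at bases -166 to -160, a string present in 50.7% of all windows. It was in 7 of the 8 here, among them the 4 with the longer core, which contains it. The full palindrome, the core with a T before it and an A after it, was in 0 of the 8 windows (0.904% of all), and the homeodomain core TAATTA was in 0 (5.29% of all). A match is a description of these letters and not a bound site.

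A level is the log2 of a probe's signal relative to the 75th percentile of all probes of the array that are not controls, so a level of 0 equals that percentile. Different probes bind with different strength, so levels were compared between groups for 1 probe and not between genes. The 15 arrays lay on 2 slides. All active CRHR1 arrays were on slide 2 with Cre GFP arrays 4 and 5, and all knockout arrays on slide 1 with the remaining 3 Cre GFP arrays. In active CRHR1 against knockout, slide therefore differs together with group, and the 2 cannot be told apart from those arrays. A fit with slide as a block separates them there only through the Cre GFP arrays. Between 59.9% and 67.8% of the spots that are not controls were well above background on an array, and 0 spots were saturated. The targeted receptor gene Crhr1 had a level of 3.72 ± 0.12 in active CRHR1 and 3.16 ± 0.12 in knockout bulbs. In Cre GFP bulbs it was at 3.63 ± 0.18 (all SD, n = 5). It was lower in the knockout than in Cre GFP by limma (log2 change -0.47, adjusted p = 0.0139). In active CRHR1 against Cre GFP it did not pass (0.09, limma adjusted p = 0.546), so this probe showed no clear rise with the viral receptor. Where the probe lies relative to the deleted part, and whether it matches the viral gene, was not determined.

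Omp, the olfactory marker protein, is the standard label of mature sensory neurons (probe at chromosome 7, 105291870 to 105291929 of mm9, the build of all probe positions here, minus strand). Its level was 6.36, 5.92, 6.67, 6.25 and 6.54 in the 5 active CRHR1 bulbs. The knockout bulbs had 6.03, 6.51, 6.61, 6.93 and 6.86, and the Cre GFP bulbs 6.44, 6.45, 6.42, 6.53 and 6.58. The Cre GFP values lay within the range of each other group, while active CRHR1 and knockout overlapped in part. The spread of the groups also differed to the eye: the SD was 0.29 in active CRHR1, 0.36 in knockout and 0.07 in Cre GFP. Of all genes, 79.6%, 75.5% and 6.82% had a lower SD in these 3 groups. Equality of the spreads was not tested. Knockout bulb 1 and active CRHR1 bulb 2 were the lowest of their groups. The means were 6.35 in active CRHR1, 6.59 in knockout and 6.48 in Cre GFP bulbs, so that active CRHR1 was lowest and knockout highest, with Cre GFP between them. Neither neighbour of Cre GFP in that order passed the limma test against it (adjusted p = 0.612 and 0.765). The log2 change was -0.14 ± 0.16 (SE) for active CRHR1 against Cre GFP (95% interval -0.48 to 0.21) and 0.10 ± 0.16 for knockout against Cre GFP (-0.24 to 0.45). These SE come from 1 estimate of the spread shared by the 3 groups, although their SD differed to the eye. For active CRHR1 against knockout it was -0.24 ± 0.16 (-0.59 to 0.11), which did not pass either (limma adjusted p = 0.274). In the Cre GFP group the 2 arrays of slide 2 averaged 6.55 and the 3 of slide 1 averaged 6.44, without overlap. The share of all genes split in this way was not counted, so no slide effect is read from so few arrays. The brightness of the Omp spot was 8.5% to 14.3% of the saturation value, so the scanner's ceiling did not bound it.

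**Figure D1:**
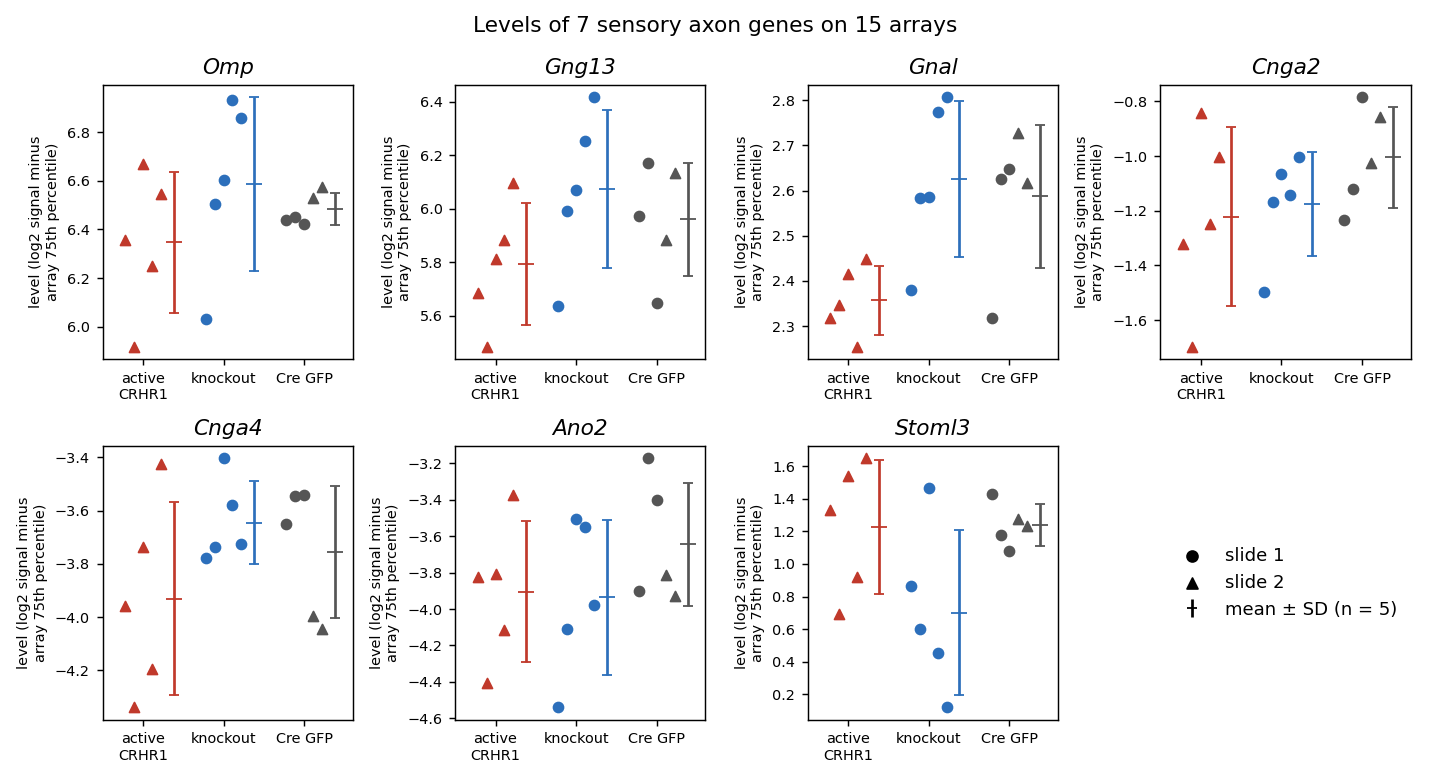
Each panel plots 1 gene, with the level (log2 signal minus the array's 75th percentile) of the 5 arrays of the active CRHR1, knockout and Cre GFP groups, circles for slide 1, triangles for slide 2 and a bar for the mean ± SD (n = 5). The groups overlap in every panel, Omp is tightest in Cre GFP bulbs (SD 0.07), and 4 of the 5 knockout bulbs lie below the lowest Cre GFP bulb for Stoml3.

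The G protein genes came next in the cascade. Gnal codes for the olfactory G protein alpha subunit, which is also used by striatal neurons. Its brighter probe read 2.32, 2.35, 2.42, 2.25 and 2.45 in active CRHR1 bulbs. It read 2.38, 2.58, 2.58, 2.77 and 2.81 in knockout bulbs and 2.32, 2.62, 2.65, 2.73 and 2.62 in Cre GFP bulbs. All 5 active CRHR1 bulbs lay below 4 of the 5 knockout and 4 of the 5 Cre GFP bulbs, with 1 low bulb in each of those groups. Gnal was the only member whose change passed the test in any comparison: it was lower in active CRHR1 than in knockout bulbs. The log2 change was -0.27 ± 0.09 (fold 0.830, adjusted p = 0.0458) against knockout and -0.23 ± 0.09 (fold 0.853, adjusted p = 0.128) against Cre GFP, all by limma. The knockout differed from Cre GFP by 0.04 ± 0.09. Because total RNA does not separate sensory axons from bulb cells, the Gnal call is not assigned to the axons.

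The dimmer Gnal probe gave a like picture against the knockout. Its levels were 0.31, -0.37, -0.16, -0.42 and -0.06 in active CRHR1 bulbs, 0.29, 0.34, 0.20, 0.33 and 0.21 in knockout bulbs, and 0.18, 0.10, 0.16, 0.10 and 0.08 in Cre GFP bulbs. In active CRHR1 bulbs 4 of 5 values lay below every other bulb, and bulb 1 lay among the knockout values. All 5 knockout values lay above all 5 Cre GFP values, with a log2 change of 0.15 ± 0.11 that did not pass (limma adjusted p = 0.461). In a limma fit over all 33965 kept probes the log2 change was -0.42 ± 0.11 against knockout (adjusted p = 0.0161) and -0.26 ± 0.11 against Cre GFP (adjusted p = 0.138). For the brighter probe the call against the knockout did not hold in a limma fit with slide as a block (-0.41 ± 0.16, adjusted p = 0.165), where the SE was larger. Leaving out 1 array at a time, it held only without knockout array 1 or Cre GFP array 1 or 4, and was lost without any of the other 12 (adjusted p from 0.0525 to 0.109). With the Omp level of each array as a covariate, chosen after the data were seen, the change was -0.18 (adjusted p = 0.135). Leaving out Cre GFP array 1 made the active CRHR1 change against Cre GFP pass (-0.30, adjusted p = 0.0348).

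Gng13, the G protein gamma subunit that pairs with the olfactory alpha subunit and is also used in taste cells, had levels of 5.69, 5.48, 5.81, 5.88 and 6.10 in active CRHR1 bulbs (chromosome 17, 25855911 to 25855970). Its levels were 5.64, 5.99, 6.07, 6.25 and 6.42 in knockout bulbs and 5.97, 6.17, 5.65, 5.88 and 6.13 in Cre GFP bulbs. The ranges overlapped in all 3 groups. The log2 change was -0.17 ± 0.15 for active CRHR1 and 0.11 ± 0.15 for knockout, each against Cre GFP (adjusted p = 0.485 and 0.717 by limma), and -0.28 ± 0.15 for active CRHR1 against knockout (adjusted p = 0.169).

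Cnga2 and Cnga4 code for subunits of the cyclic nucleotide-gated channel, Cnga2 being the one the channel cannot work without. Cnga2 (chromosome X, 69254862 to 69254921) had levels of -1.32, -1.70, -0.84, -1.25 and -1.01 in active CRHR1, -1.50, -1.17, -1.07, -1.14 and -1.004 in knockout, and -1.23, -1.12, -0.79, -1.02 and -0.86 in Cre GFP bulbs. Its lowest values were again active CRHR1 bulb 2 and knockout bulb 1. The log2 change against Cre GFP was -0.22 ± 0.15 in active CRHR1 and -0.17 ± 0.15 in knockout bulbs (adjusted p = 0.353 and 0.547 by limma).

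Cnga4 (chromosome 7, 112557135 to 112557194) had levels of -3.96, -4.34, -3.73, -4.19 and -3.42 in active CRHR1, -3.78, -3.74, -3.40, -3.58 and -3.73 in knockout, and -3.65, -3.55, -3.54, -4.00 and -4.04 in Cre GFP bulbs. Within the Cre GFP group the 2 arrays of slide 2 averaged -4.02 and the 3 of slide 1 averaged -3.58, without overlap. As for Omp, the share of all genes split in this way was not counted. The changes of Cnga4 against Cre GFP were -0.17 in active CRHR1 and 0.11 in knockout bulbs, and with slide as a block both turned sign, to 0.09 and -0.07, with no call in either fit (limma adjusted p from 0.506 to 0.877).

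Ano2, the calcium-activated chloride channel of the sensory cilia (chromosome 6, 125990063 to 125990122), had levels of -3.82, -4.41, -3.81, -4.12 and -3.37 in active CRHR1, -4.54, -4.11, -3.51, -3.55 and -3.98 in knockout, and -3.90, -3.17, -3.40, -3.81 and -3.93 in Cre GFP bulbs. Its values spread over 0.76 to 1.03 log2 units within each group. The log2 change against Cre GFP was -0.26 ± 0.23 in active CRHR1 and -0.29 ± 0.23 in knockout bulbs (limma adjusted p = 0.479 and 0.506). The Cre GFP arrays averaged -3.87 on slide 2 and -3.49 on slide 1, with overlap, and with slide as a block the change was -0.03 in active CRHR1 and -0.44 in knockout bulbs (adjusted p = 0.959 and 0.425).

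Stoml3, a stomatin-like membrane protein of the cilia that is also known from touch neurons, departed from the others (chromosome 3, 53311510 to 53311569). Its level was 1.33, 0.69, 1.54, 0.92 and 1.65 in active CRHR1 bulbs. Knockout bulbs had 0.87, 0.60, 1.47, 0.46 and 0.12, against 1.43, 1.18, 1.08, 1.27 and 1.24 in Cre GFP bulbs. In the knockout 4 of 5 values lay below every Cre GFP value, and knockout bulb 3 lay above them all. The log2 change was -0.54 ± 0.23 in knockout against Cre GFP (95% interval -1.02 to -0.05, adjusted p = 0.206 by limma), which missed the threshold, and -0.01 ± 0.23 in active CRHR1 against Cre GFP. Active CRHR1 against knockout gave 0.52 ± 0.23 (limma adjusted p = 0.0971), and 0.72 (adjusted p = 0.0176) without knockout array 3.

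**Figure D2:**
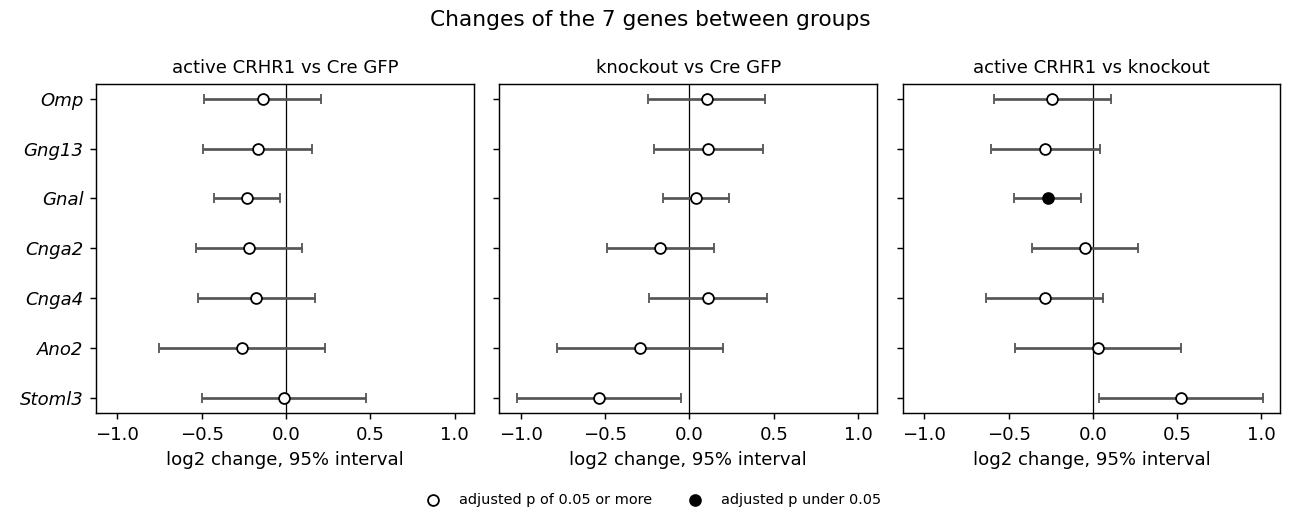
The log2 change of each gene (circle) with its 95% interval is drawn for active CRHR1 against Cre GFP, knockout against Cre GFP and active CRHR1 against knockout, with filled circles where the adjusted p was under 0.05. The filled circle is Gnal in the right panel, at -0.27, and the lowest value in the middle panel is Stoml3 at -0.54.

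Counted together, 0 of the 7 genes passed the test in active CRHR1 against Cre GFP, where 8.57% of all genes did (3.9% higher, 4.67% lower). In knockout against Cre GFP 0 of 7 passed, against 3.39% of all genes (1.96% higher, 1.43% lower). At an unadjusted p under 0.05 there was 1 member in each (Gnal and Stoml3), where 27.3% and 19.8% of all genes were. In active CRHR1 against knockout 1 of 7 passed, against 25.7% of all genes (9.38% higher, 16.3% lower), and 2 of 7 had an unadjusted p under 0.05, against 41.4%. Gnal is thus a call in a comparison where calls were common. With 1 probe for each gene, no member's groups were without overlap in any comparison, and 10.5%, 5.53% and 18.7% of all genes had such groups in these 3 comparisons. All 7 changes were negative in active CRHR1 against Cre GFP, as were 61.9% of all changes, and the members' median was -0.17, beside -0.07 for all genes. Stoml3 was positive instead under quantile normalization and with array weights, and Cnga4 with slide as a block. Negative changes numbered 3 of 7 in knockout against Cre GFP (49.3% of all genes) and 5 of 7 in active CRHR1 against knockout (59.3%). The members' median was 0.04 in knockout against Cre GFP and -0.24 in active CRHR1 against knockout, beside 0.0037 and -0.07 for all genes. The comparisons share groups, so they are not independent of each other.

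Within groups, Cnga2, Gng13 and Gnal followed Omp from bulb to bulb by Pearson correlation, and Cnga4 followed Ano2 by both Pearson and Spearman correlation. Each array's deviation from its group mean was taken for every gene, and 21 pairs of members were correlated over the 15 arrays, with permutations within groups and adjustment over the pairs. Omp went with Cnga2 (Pearson r = 0.794, adjusted permutation p = 0.0135; Spearman rho = 0.671, adjusted p = 0.0782). It went with Gng13 (r = 0.776, adjusted permutation p = 0.0199; rho = 0.682, adjusted p = 0.0869) and with Gnal (r = 0.673, adjusted permutation p = 0.0206; rho = 0.732, adjusted p = 0.0771). The correlation with Ano2 was 0.645 (adjusted permutation p = 0.0687; rho = 0.561, adjusted p = 0.151). Without the 2 arrays farthest from the Omp median, knockout 1 and active CRHR1 2, r was 0.572 with Cnga2, 0.539 with Gng13, 0.644 with Gnal and 0.295 with Ano2, so these relations rest in part, and that with Ano2 largely, on those arrays. With the slide means removed as well, the 4 values were 0.790, 0.774, 0.670 and 0.731.

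The pair that held best was Cnga4 with Ano2, at r = 0.821 (adjusted permutation p = 0.00966; rho = 0.843, adjusted p = 0.0178), at 0.734 without the 2 arrays farthest from the Cnga4 median, and at 0.812 within slides. Both spots were dim, at most 0.0180% of the saturation value. Stoml3 did not follow Omp (r = 0.112, adjusted permutation p = 0.808; rho = 0.179, adjusted p = 0.663), and its largest r was with Cnga4 (0.601, adjusted permutation p = 0.0615; rho = 0.532, adjusted p = 0.151). The permuted pairs came from the same arrays and share each array's scaling.

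**Figure D3:**
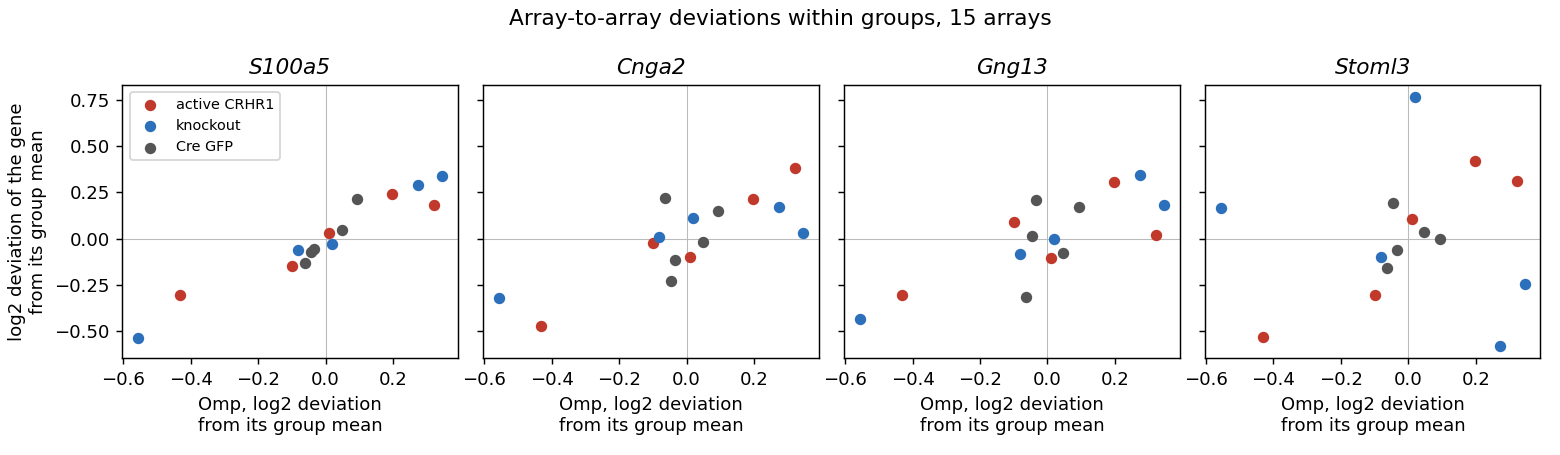
Each point is 1 of the 15 arrays, with the log2 deviation of Omp from its group mean on the horizontal axis and that of S100a5, Cnga2, Gng13 or Stoml3 on the vertical axis, coloured by group. S100a5 lies close to a line (r = 0.963), Cnga2 and Gng13 follow more loosely (0.794 and 0.776), and Stoml3 shows no such line (0.112).

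The genes most like Omp were named by the same measure among 16547 other genes with a symbol and a value on all arrays. They were S100a5 (r = 0.963), Atf5 (0.960), Pth2 (0.933), Tstd1 (0.919), Nrn1l (0.913), Cibar2 (0.903), Rtp2 (0.879) and 1700012B09Rik (0.877). S100a5 codes for a calcium-binding protein of mature sensory neurons, Rtp2 for a protein that carries odorant receptors to the membrane, and Atf5 for a transcription factor of the sensory neuron lineage. Without knockout array 1 and active CRHR1 array 2 the 8 values lay between 0.681 and 0.929. S100a5 read 6.25, 5.91, 6.40, 6.07 and 6.46 in active CRHR1 bulbs, 5.73, 6.21, 6.24, 6.61 and 6.56 in knockout bulbs, and 6.21, 6.22, 6.15, 6.33 and 6.49 in Cre GFP bulbs. Its lowest bulbs were the lowest Omp bulbs, and its change was -0.06 in active CRHR1 and -0.01 in knockout against Cre GFP (limma adjusted p = 0.828 and 0.978). None of the 8 passed the limma test in any of the 3 comparisons, where adjusted p ran from 0.140 to 0.987. The smallest unadjusted p among them was 0.0314, for Cibar2 in knockout against Cre GFP. For the mean deviation of all 7 members the nearest genes were Ttll6 (0.919), Nrn1l (0.884), Gm6878 (0.873), Nxnl2 (0.864), Foxd3 (0.857), E130215H24Rik (0.854), Clec10a (0.850) and Asgr2 (0.848), with Nrn1l in both sets.

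The other genes of the cascade and the marker lists were read by the same measure. Of all genes, 1.57% had an r with Omp above 0.6, and 4 of the other 6 members did. Of 9 further transduction genes 1 did, Cngb1 (0.723), the third channel subunit. The median r of these 9 was 0.0757 and the lowest -0.544, for Adcy3. Of 14 markers of mature sensory neurons 2 did, S100a5 and Rtp2. The median r of these 14 was 0.116, and Ebf4 (-0.565) and Ncam2 (-0.509) were the lowest. Of 103 odorant receptors tested 7 did, led by Olfr97 (0.828) and Olfr1382 (0.743). Of 10 olfactory ensheathing glia genes, the glia that wrap these axons, 3 did: Fabp7 (0.715), Apod (0.650) and Frzb (0.610). The lists of immature sensory neurons, vomeronasal neurons, nasal supporting cells and glands, mitral and tufted cells, granule and periglomerular cells, input-dependent genes and microglia had 0 each. By median r, microglia stood at 0.466 (highest 0.576, Csf1r), input-dependent genes at 0.389 and ensheathing glia at 0.382. Odorant receptors stood at 0.213. Likeness to Omp was thus not particular to the lists of sensory neurons. Whether these shares or medians differ between lists was not tested.

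**Figure D4:**
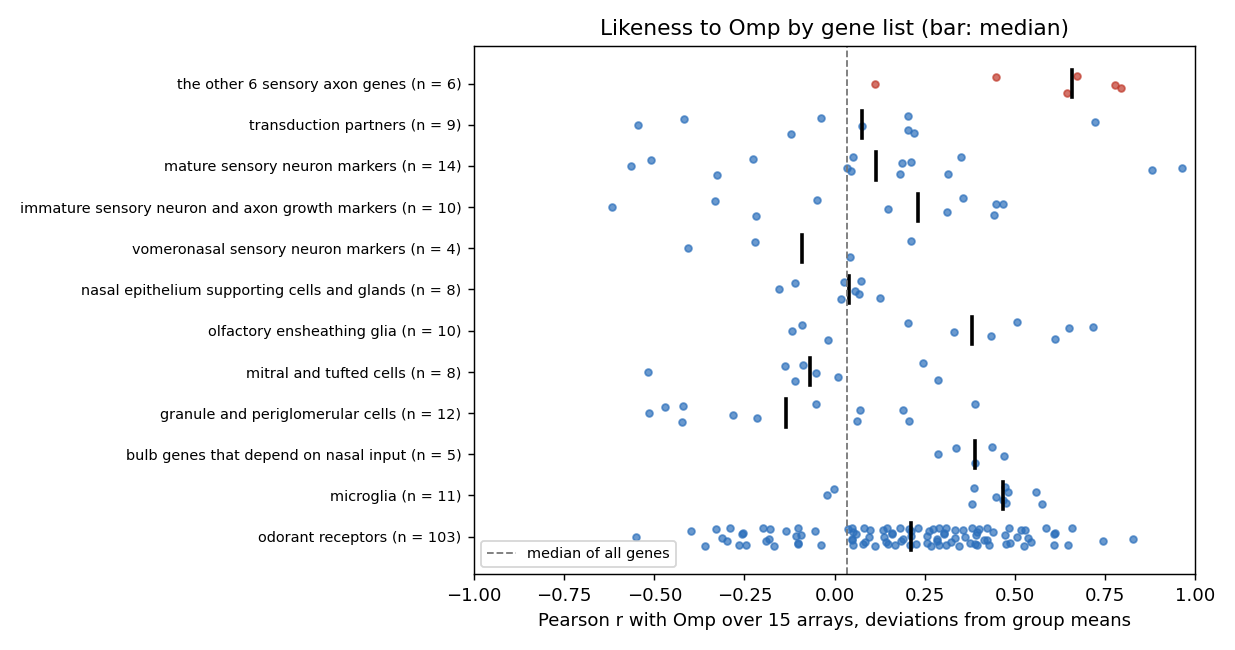
Each point is a gene, placed by its Pearson r with Omp over the 15 arrays after removal of group means, in rows of gene lists with a bar for the list's median and a dashed line for the median of all genes. The other 6 sensory axon genes have a median of 0.659, microglia 0.466, input-dependent genes 0.389 and odorant receptors 0.213, beside 0.0331 for all genes.

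The partners of the cascade were nearly all without a call. For this and each later list, the shares of all genes that passed are the background. They were 8.57% in active CRHR1 against Cre GFP, 3.39% in knockout against Cre GFP and 25.7% in active CRHR1 against knockout. Of 9 transduction genes 0 passed the limma test in active CRHR1 against Cre GFP and 0 in knockout against Cre GFP, where 2 of 9 had an unadjusted p under 0.05 in each. Pde1c, a phosphodiesterase of the cilia, came closest: -1.86 ± 0.08 in active CRHR1 and -1.94 ± 0.12 in knockout bulbs, against -1.57 ± 0.23 in Cre GFP bulbs (log2 changes -0.29 and -0.37, adjusted p = 0.0813 and 0.0561). The next smallest p were those of Slc24a4, a sodium-calcium exchanger (-0.24, adjusted p = 0.172, active CRHR1), and Gnb1, a G protein beta subunit (0.33, adjusted p = 0.193, knockout). In active CRHR1 against knockout Pde4a, another phosphodiesterase, was lower (-0.24 ± 0.08, adjusted p = 0.0402), a call lost with median centring, quantile normalization or slide as a block.

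Among the 14 markers of mature sensory neurons 3 were lower and 0 higher in active CRHR1 than in Cre GFP bulbs. Lhx2, a homeodomain factor, had a level of 2.38 ± 0.09 in active CRHR1 and 2.78 ± 0.09 in Cre GFP bulbs without overlap (log2 change -0.40 ± 0.07, limma adjusted p = 0.00373). Kirrel2, an adhesion protein that sorts axons, was lower by -0.48 ± 0.12 (adjusted p = 0.0265), and Emx2, a homeodomain factor, by -0.51 ± 0.15 (adjusted p = 0.0473). All 3 calls held under quantile normalization and median centring, and 2 held with slide as a block. Transcription factor genes such as these can also be active in bulb cells, which total RNA does not separate. Against the knockout Lhx2 (-0.36) and Ebf1 (-0.34) were lower (adjusted p = 0.00412 and 0.0235), calls that ended with slide as a block (-0.41 and -0.29, adjusted p = 0.105 and 0.327). In knockout against Cre GFP 0 of the 14 passed, Kirrel2 (-0.35) and Ebf1 (0.26) having the smallest p (adjusted p = 0.126 and 0.163), and 2 of 14 had an unadjusted p under 0.05.

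Of 10 genes of immature sensory neurons and growing axons 2 were lower and 0 higher in active CRHR1 than in Cre GFP bulbs. Gap43, a growth cone protein, was at 3.67 ± 0.08 and 4.01 ± 0.17 (log2 change -0.34 ± 0.09, limma adjusted p = 0.0309), and Stmn2, which regulates microtubules, at 3.74 ± 0.05 and 4.09 ± 0.17 (-0.35 ± 0.10, adjusted p = 0.0432). Neither call held with slide as a block (-0.39 and -0.45) or median centring (-0.44 and -0.45), although the changes were no smaller. Against the knockout Gap43 (-0.47), Stmn2 (-0.47) and Dpysl5 (-0.67) were lower (limma adjusted p = 0.00341, 0.00598 and 0.0387). Their r with Omp was 0.149, 0.312 and 0.442. Total RNA does not separate sensory axons from bulb cells for this list either, so the calls are not assigned to the axons. Of the 10 genes 0 passed in knockout against Cre GFP (1 at an unadjusted p under 0.05), with Dpysl5 at 0.55 and Cxcr4 at 0.21 (adjusted p = 0.181 and 0.429).

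Odorant receptors are the family from which each sensory neuron uses 1 member. Of 1102 receptor genes on the array 103 passed the filter on dim probes, some through 1 group alone. Of these, 0 were higher and 2 lower in active CRHR1 than in Cre GFP bulbs: Olfr373 (-0.29, limma adjusted p = 0.0417) and Olfr745 (-0.50, adjusted p = 0.0244). With normexp Olfr745 was at -0.13 (adjusted p = 0.299), and it did not pass under quantile normalization either (-0.57, adjusted p = 0.0726). Olfr373 did not pass with median centring (-0.39, adjusted p = 0.0935), and neither passed with slide as a block. In knockout against Cre GFP 0 passed and 12 of 103 had an unadjusted p under 0.05, where 19.8% of all genes had. The smallest p were those of Olfr173 (-0.42, limma adjusted p = 0.128) and Olfr288 (-2.11, adjusted p = 0.122). Olfr288 was well above background on 0 knockout arrays and on 4 Cre GFP arrays. In active CRHR1 against knockout 9 of 103 receptors passed, where 25.7% of all genes did. Of these, 4 (Olfr288, Olfr9, Olfr1273-ps and Olfr1341) were well above background on at most 1 array of either the active CRHR1 or the knockout group, so they entered through groups where they were high, and their direction is no result. Of the other 5, Olfr373 (-0.47), Olfr921 (-0.46), Olfr522 (-0.40) and Olfr745 (-0.40) were lower (adjusted p = 0.00191, 0.00929, 0.0174 and 0.0321), and Olfr373 alone still passed with slide as a block. Olfr965 was higher (0.43, adjusted p = 0.0299), a call that normexp background correction ended (-0.0079, adjusted p = 0.925).

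Markers of other cells of the nose and bulb were set beside these values. Markers of nasal supporting cells and glands were present in varying amount: 8 of 11 were tested, their summed linear signal, in multiples of the 75th percentile, ran from 0.963 to 3.07 in active CRHR1, 1.09 to 2.43 in knockout and 0.251 to 2.66 in Cre GFP bulbs, and Cyp1a2 and Reg3g were well above background on 2 arrays each. Cyp2g1, an enzyme of the olfactory epithelium, was at -0.80 ± 1.10 in active CRHR1, -0.61 ± 0.67 in knockout and -2.16 ± 2.93 in Cre GFP bulbs, and 0 of the 8 passed the test in any comparison (0 had an unadjusted p under 0.05 by limma). The smallest p among them were those of Cyp2g1, Ugt2a1, Sec14l3 and Krt5 (limma adjusted p from 0.386 to 0.869). The 8 nasal genes had r with Omp between -0.153 and 0.125. Whether they went with the other members, Stoml3 among them, was not tested. For the vomeronasal list, too, total RNA does not separate axons from bulb cells. Of 4 vomeronasal genes tested 0 passed, Trpc2, the channel of vomeronasal neurons, being at -0.35 in knockout against Cre GFP, Gnao1 at -0.27 and Ano1 at -0.09 in active CRHR1 against Cre GFP, and Gnai2 at -0.15 in active CRHR1 against knockout (limma adjusted p = 0.229, 0.099, 0.583 and 0.137; 1 of 4 had an unadjusted p under 0.05 against Cre GFP in each group).

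Genes of the glia around the axons were read next. Of 10 ensheathing glia genes 4 were higher in knockout than in Cre GFP bulbs, Ngfr (0.75), Npy (0.53), Prss56 (0.71) and Sox10 (0.31) (limma adjusted p = 0.00339, 0.0134, 0.0445 and 0.0490). Of these calls 1 held with median centring and 2 with slide as a block, and no change turned sign. Their summed signal ran from 558 to 752 in knockout and 496 to 611 in Cre GFP bulbs. In active CRHR1 bulbs the sum ran from 449 to 510, and 8 genes were lower than in the knockout, among them Ngfr (-0.99), Npy (-0.69) and Frzb (-0.47), with adjusted p from 0.000182 to 0.00218. Their part in the values of the sensory axon genes was not tested.

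Genes of bulb neurons and microglia passed in active CRHR1 against Cre GFP, where 0 of the 7 axon genes did. In active CRHR1 against Cre GFP 3 of 8 mitral and tufted cell genes were lower, Tbr1 (-0.49), Nrn1 (-0.38) and Lbhd2 (-0.30), and 4 of 12 granule and periglomerular genes, Dlx2 (-0.31), Meis2 (-0.30), Etv1 (-0.26) and Calb2 (-0.29), with limma adjusted p from 0.00606 to 0.0471. Of the 4 granule and periglomerular calls 0 held with median centring and 2 with slide as a block. Of the 3 mitral and tufted calls 2 held under each. The changes of the 4 granule and periglomerular genes lay between -0.41 and -0.31 under both. Under quantile normalization these 4 changes were smaller, from -0.24 to -0.15, and 1 of the 4 calls held, beside 2 of the 3 mitral and tufted calls. In knockout against Cre GFP 1 of each list was lower, Nrn1 (-0.30) and Etv1 (-0.35), and in active CRHR1 against knockout Lbhd2 (-0.37), Tbr1 (-0.37) and Meis2 (-0.32) were lower (adjusted p from 0.00847 to 0.0401). With slide as a block none of these 5 passed (changes from -0.47 to -0.26, adjusted p from 0.101 to 0.208), and Nrn1 and Etv1 in the knockout did not pass with median centring either (-0.35 and -0.40, adjusted p = 0.140 and 0.117). Of 11 microglia genes 9 were higher in active CRHR1 than in Cre GFP bulbs, led by C1qa (1.56), C1qc (1.47), C1qb (1.49) and Aif1 (1.89), and 6 were higher and 1, P2ry12, lower than in the knockout. Of the 9 calls 5 held with median centring and 6 with slide as a block. Their summed signal ran from 126 to 192 in active CRHR1, 92.1 to 131 in knockout and 80.2 to 108 in Cre GFP bulbs, and in knockout against Cre GFP 0 of 11 passed, with P2ry12 (0.27) and Cx3cr1 (0.28) having the smallest p. Their part in the values of the axon genes was not tested.

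Genes that bulb neurons switch on with nasal input were read as a last list of 5. Nr4a1 and Junb, which follow neuronal activity, were higher in active CRHR1 than in Cre GFP bulbs (1.18 ± 0.31 and 0.71 ± 0.20, limma adjusted p = 0.0337 and 0.0451), and Nr4a1 was higher than in the knockout (0.99, adjusted p = 0.0355). Neither call held with slide as a block or median centring. Th, tyrosine hydroxylase of periglomerular cells, which is known to drop when nasal input is lost, was at 6.50 in active CRHR1, 6.55 in knockout and 6.76 in Cre GFP bulbs, and its changes of -0.26 and -0.21 against Cre GFP missed the threshold (adjusted p = 0.155 and 0.321). Of the 5 genes 0 passed in knockout against Cre GFP, with Junb at 0.44 (adjusted p = 0.243).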

How the data were processed

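Each of 15 bulb RNA samples, 5 per group, was hybridised to a 1-colour Agilent array. Per the labels' protocols, TRIzol RNA was treated with DNaseI and 100 ng was labelled with Cy3. Spot intensity in the deposited scanner files was read with Agilent Feature Extraction 10.7.3.1 on build mm9 per the file headers, which also wrote the deposited flags, and the submitters' processing notes name the same program. The authors' series values, a linear ratio used as an alternative, were that processed intensity divided by the array's median over 59305 spots that are not controls, found by matching columns to scanner values (all within 0.1%), with column medians from 0.899 to 0.935.

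Control spots and outlier flags were left out, the processed signal was divided by its array's 75th percentile and put on the log2 scale, and repeated spots were averaged per probe. Probes well above background on at least 4 of 5 arrays of any group were kept, 33965 of 55681. RefSeq accessions named 27509 probes, and the brightest kept probe stood for a gene, which gave 27336 genes or unnamed transcripts, 16563 with a symbol. The 3 groups were fitted together with limma 3.58.1 (lmFit, eBayes) in R 4.3.3, and an adjusted p (Benjamini-Hochberg over all) under 0.05 passed. Per the labels the 5 mice of a group are separate animals, and their number limits the precision. Pairs of members were tested with 100000 permutations within groups. The fit was tested on simulated data. Alternatives are in the closing section. Members, lists and tests were chosen with earlier results of these data known. The rule for named genes took the 7 members, Crhr1, the genes of each list that passed (at most 4 by smallest p, else 2), and the 8 genes closest to Omp and to the members' mean; some receptors and values are named outside it, chosen after their values were seen. The sequence of the Gnal promoter and of probes is not reported here, and an mm9 annotation was not used here. Python 3.11.15 served for tables (pandas 2.3.3) and for plotting (matplotlib 3.10.9).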

Additional observations from a re-analysis of the deposited data

Results flagged for a closer look

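One value stood far from the other arrays of its group. The brighter Gnal probe read 2.32 on Cre GFP array 1, and the nearest other Cre GFP array read 2.62. This gap was 0.727 of the group's range, over Dixon's 95% limit for 5 samples. Of 24 sets of 5 arrays tested (8 probes in 3 groups) this was the only one, and chance marks about 1 in 20. The dimmer Gnal probe read 0.18 on that array, the highest of its group. Without the array the change of Gnal in active CRHR1 against Cre GFP was -0.30 (limma adjusted p = 0.0348).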

How the results depend on the processing

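No member passed in knockout against Cre GFP under any of 31 alternatives. In active CRHR1 against Cre GFP 1 member, Gnal, passed with array weights (-0.27, adjusted p = 0.0216), and 0 or 1 when 1 array was left out, the 1 being Gnal without Cre GFP array 1. In active CRHR1 against knockout 0 members passed under quantile normalization, median centring, no filter on dim probes, a fit of the 2 groups alone, slide as a fixed block, a threshold of 0.01 and, chosen after the data were seen, Omp as a covariate. With slide as a random block 2 passed (Gnal and Stoml3, with Stoml3 at 0.53, adjusted p = 0.0401), and 0 or 1 when 1 array was left out, the 1 being Stoml3 without knockout array 3 and Gnal otherwise. Gnal stayed negative there in all 30 alternatives (-0.46 to -0.18), and its adjusted p ran from 0.0207 to 0.109 over single omissions (-0.33 to -0.22).

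Changes that turned sign, none of them past the threshold, were these. Stoml3 in active CRHR1 against Cre GFP was 0.042 under quantile normalization, 0.076 with array weights and 0.0083 with the Omp covariate, and -0.12 to 0.12 over single omissions. Ano2 in active CRHR1 against knockout was -0.10 with normexp, -0.010 with the authors' values and median centring, -0.024 with the random slide block, and -0.12 to 0.16 over single omissions. Gnal in knockout against Cre GFP was -0.016 with median centring and -0.023 with array weights, and -0.029 to 0.10 over single omissions. Cnga2 in active CRHR1 against knockout was 0.027 with array weights and 0.13 with the covariate, and -0.14 to 0.073 over single omissions. Cnga4 with slide as a fixed block, or among arrays of the shared slide alone, was -0.066 in knockout and 0.090 in active CRHR1 against Cre GFP, and 0.16 between active CRHR1 and knockout under the block. The causes were not tested.

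Over all genes, passing counts ran from 327 to 5707 (active CRHR1 against Cre GFP, 2342 as reported), 114 to 1426 (knockout against Cre GFP, 927) and 679 to 10621 (active CRHR1 against knockout, 7022). The share of calls that were lower was 54.5%, 42.3% and 63.5% in this order, and 44.1%, 66.8% and 52.0% with median centring. In knockout against Cre GFP it was 31.0% with normexp and 66.6% with the authors' values, and in active CRHR1 against knockout 74.7% and 52.3%. Of the calls in active CRHR1 against knockout, slide as a block kept 0 of 3 immature neuron genes, 4 of 8 ensheathing glia genes and 4 of 7 microglia genes. Replicate numbers only name the mice: same-numbered arrays correlated from -0.219 to 0.405, and with the replicate block the members passing were 0, 0 and 1, of 1557, 561 and 5984 genes in all. The number of arrays, 5 a group, sets the width of the 95% intervals given.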
